A study of Mus musculus with 30 samples.

Results

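CVAD is the combination of cyclophosphamide, vincristine, doxorubicin and dexamethasone. Its effect in mouse dorsal root ganglia on day 8 was read from the 3 libraries labelled CVAD, day 8, set against the 3 labelled saline, day 8, which are 6 of the 30 libraries of the series. All animals were wild-type C57BL/6J males, and their age, the doses and the schedule are not given in the sources used here. Each library came from lumbar ganglia L3, L4 and L5 of both sides, taken after the animals had been perfused with RNAlater. The other 8 groups of 3 libraries were cyclophosphamide, vincristine, doxorubicin and dexamethasone alone on day 8, and CVAD, cyclophosphamide, dexamethasone and saline on day 2. The labels do not say whether a library is 1 animal or a pool, so p-values measure a spread between libraries that may in part be technical. That spread, and the SE given with a difference, was estimated within groups over all 30 libraries, not from these 6 alone. Replicate numbers follow the order of the libraries within each group, and the labels do not link equal numbers between groups. Values are TPM, transcripts per 1e+06, a unit that scales each library to the same total. Differences are CVAD minus saline on log2(TPM + 1), a scale that understates the change of genes with few TPM.

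The cell bodies of sensory neurons sit in dorsal root ganglia, wrapped by satellite glia, with Schwann cells, resident macrophages, fibroblasts and a dense net of vessels that lacks a tight blood-nerve barrier. Vincristine binds tubulin and blocks the assembly of microtubules, doxorubicin poisons topoisomerase II, the metabolites of cyclophosphamide crosslink DNA, and dexamethasone activates the glucocorticoid receptor. Vincristine, doxorubicin and cyclophosphamide act strongly on dividing cells, among them the precursors of granulocytes in bone marrow, while sensory neurons do not divide. Ganglia lie within the vertebral column, whose bone encloses marrow.

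The dissected tissue carried the genes that define a sensory ganglion. Prph, a neurofilament-like protein of small sensory neurons, ranged from 227 to 329 TPM over the 6 libraries, and Scn10a, a sodium channel of nociceptors, from 239 to 298 TPM. Fabp7, a satellite glia gene, ranged from 120.4 to 175 TPM. Some libraries stood apart in single cell types. Saline replicate 1 had the least skeletal muscle RNA of the 6, with Ckm, muscle creatine kinase, at 72.3, 30.9 and 15.1 TPM with CVAD and 0, 50.4 and 25.5 TPM with saline. Saline replicate 3 was low in erythroid RNA, with Alas2, the first enzyme of haem synthesis in red cell precursors, at 35.98, 14.99 and 15.1 TPM with CVAD and 53.8, 40.7 and 0 TPM with saline. CVAD replicate 3 had the largest share of its TPM in genes of the misc_RNA type, at 24.65%, against 17.66 and 15.85% in the other CVAD libraries and 18.8, 20.53 and 19.24% in saline. A value of exactly 0 can be a failed estimate in a table of this kind, and genes at 0 are described as listed at 0.

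Of the 25434 genes tested, 0 (0%) passed in limma for CVAD against saline at an adjusted p under 0.05. At an unadjusted p under 0.05, 815 genes (3.2%) were higher and 707 (2.78%) were lower in CVAD. The 3 CVAD values lay above the 3 saline values in 1377 genes (5.41%) and below them in 1164 genes (4.58%). Among 15314 protein-coding genes these shares were 5.39% above and 4.85% below. The median difference of all tested genes was 0.017, with 54.2% of genes higher and 44.7% lower. A simulated table of this comparison had changed genes drawn from the more abundant genes only, with noise independent between genes. Recovery of genes with few TPM, or of genes that vary together, was therefore not measured. Of genes with a 1.5-fold change on the log2(TPM + 1) scale, 31 of 67 were recovered. For a 2-fold change it was 53 of 67, and for a 4-fold change 61 of 66. The smallest adjusted p-value (limma, 0.0944) was shared by Camp, Ngp, Cd177 and Elane, genes of neutrophil granules, and by the pseudogene Gm4739, all lower in CVAD. With other settings up to 7 genes passed. Camp, Ngp, Cd177 and Elane were called after median-ratio scaling, among protein-coding genes rescaled to the same total and with library weights. They were not called with no filter, with a pseudocount of 0.1 or with the filter set within the libraries compared. Nor were they called with day 8 libraries only, with only the groups compared in the fit, or with any 1 library left out.

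**Figure D1:**
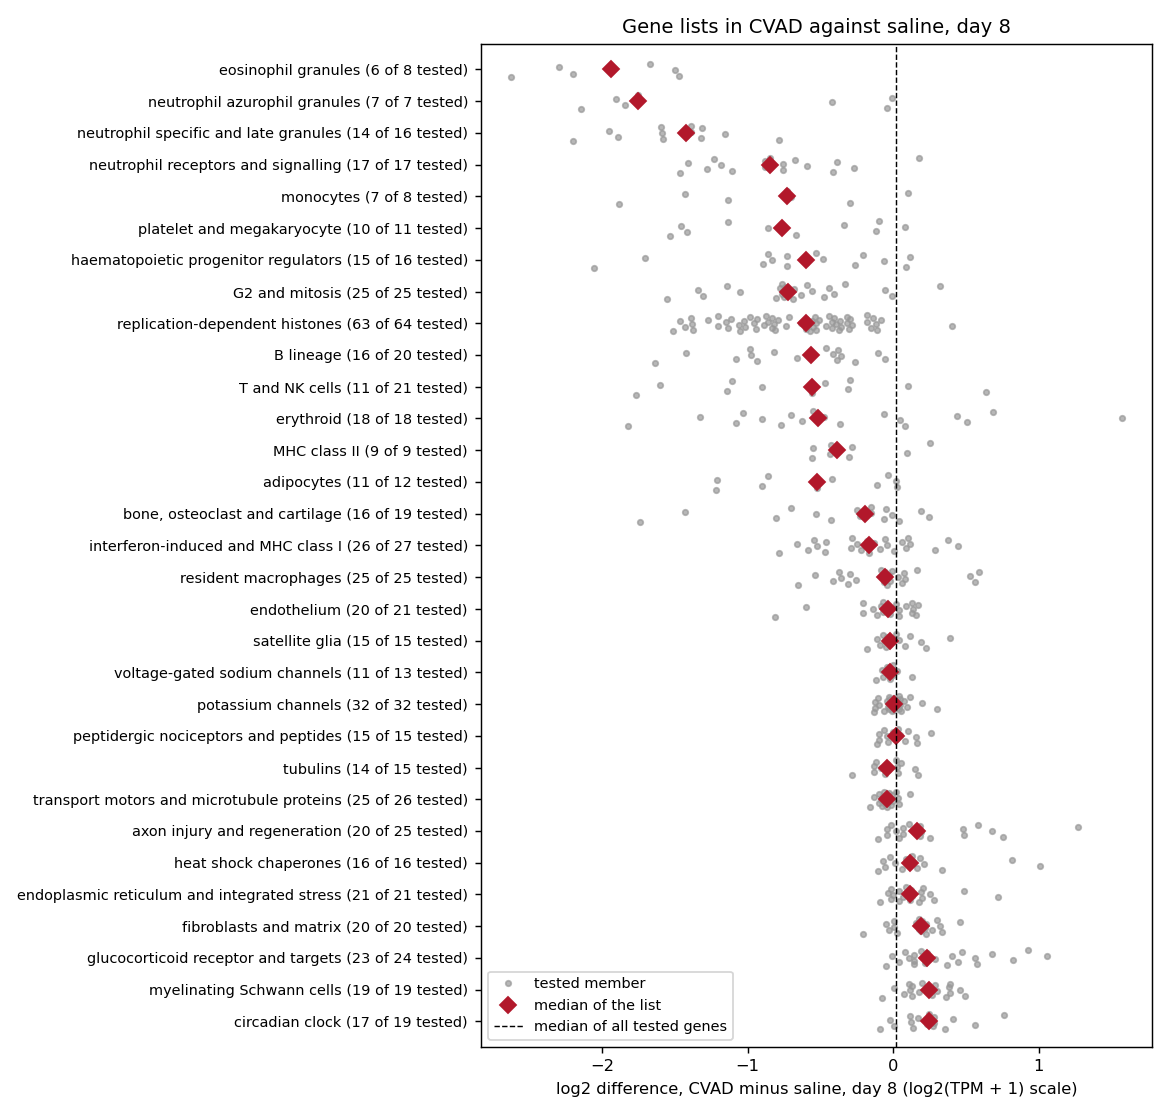
Differences between CVAD and saline ganglia on day 8 for 31 gene lists, with a grey point per tested gene, a red diamond for the median of each list and a dashed line for the median of all tested genes. The x axis is the difference on the log2(TPM + 1) scale; the granulocyte lists lie to the left of the dashed line, and the lists of neuronal channels lie close to it.

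Azurophil granules are filled first, in promyelocytes of the marrow, with proteases and myeloperoxidase. Elane (ENSMUSG00000020125.8, chromosome 10), neutrophil elastase, was at 3.505, 2.22 and 5.37 TPM in CVAD ganglia, against 13.2, 19.2 and 27.1 TPM in saline ganglia (log2 difference −2.15 ± 0.40 (SE), limma adjusted p = 0.0944). Prtn3 (ENSMUSG00000057729.13, chromosome 10), proteinase 3, was at 6.11, 3.01 and 4.68 TPM in CVAD ganglia, against 10.5, 20.8 and 23.9 TPM in saline ganglia (log2 difference −1.75 ± 0.37 (SE), limma adjusted p = 0.185). Mpo, myeloperoxidase, was at 6.399, 6.91 and 5.12 TPM in CVAD ganglia, against 15.2, 27.8 and 39.2 TPM in saline ganglia (log2 difference −1.90 ± 0.41 (SE), limma adjusted p = 0.185). In each of these genes the highest CVAD library lay below the lowest saline library, and in each saline replicate 1 was the lowest of its group. Ctsg, cathepsin G, was at 2.24, 0 and 1.94 TPM with CVAD and 4.88, 6.47 and 9.02 TPM with saline, again without overlap. Of the 7 genes of this list the other members behaved differently. Srgn, the proteoglycan that packs granules and that many other cells make, was at 27.1, 37.3 and 31.9 TPM with CVAD and 32.1, 28.02 and 36.5 TPM with saline. Ms4a3, a membrane protein of granulocyte and monocyte precursors, was at 21.1, 18.1 and 14.4 TPM with CVAD and 16.6, 22.4 and 16.3 TPM with saline, and both genes overlapped between groups. Cst7, a protease inhibitor, was listed at 0 in every CVAD library and in saline replicates 2 and 3.

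Specific and late granules are filled afterwards, in myelocytes and later stages. All 14 tested genes of this list of 16 were lower in CVAD, 13 of them without overlap, at a median difference of −1.42. Camp (ENSMUSG00000038357.11, chromosome 9), the antimicrobial peptide cathelicidin, was at 8.8004, 8.69 and 9.15 TPM in CVAD ganglia, against 28.2, 40.3 and 45.6 TPM in saline ganglia (log2 difference −1.95 ± 0.35 (SE), limma adjusted p = 0.0944). The 3 CVAD values were almost equal, and all lay far below the lowest saline value. Ngp (ENSMUSG00000032484.9, chromosome 9), neutrophilic granule protein, was at 38.7, 40.4 and 23.8 TPM in CVAD ganglia, against 87.1, 102 and 120.4 TPM in saline ganglia (log2 difference −1.59 ± 0.29 (SE), limma adjusted p = 0.0944). Cd177 (ENSMUSG00000052212.7, chromosome 7), a surface and granule protein of neutrophils, was at 4.06, 2.804 and 2.34 TPM in CVAD ganglia, against 11.3, 11.5 and 20.4 TPM in saline ganglia (log2 difference −1.89 ± 0.35 (SE), limma adjusted p = 0.0944). Pglyrp1, which binds bacterial peptidoglycan, was at 9.86, 5.41 and 6.85 TPM in CVAD ganglia, against 16.5, 20.1 and 27.7 TPM in saline ganglia (log2 difference −1.42 ± 0.31 (SE), limma adjusted p = 0.185). Every one of these genes separated the groups, and the highest saline value was in replicate 3 each time. Ltf, the iron-binding lactoferrin, was at 23.6, 24.7 and 11.2 TPM with CVAD and 44.6, 55.1 and 79.9 TPM with saline. Lcn2, which binds bacterial siderophores, was at 22.9, 16.2 and 16.9 TPM with CVAD and 56.7, 52.8 and 64.5 TPM with saline. Among the proteases of the late granules, Mmp8 was at 6.44, 4.63 and 4.104 TPM with CVAD and 15.2, 11.2 and 18.6 TPM with saline and Mmp9 at 12.5, 9.39 and 5.15 TPM with CVAD and 23.3, 23.6 and 21.5 TPM with saline. Retnlg, a resistin-like protein of mature neutrophils, was at 18.8, 12.5 and 10.9 TPM with CVAD and 32.2, 35.9 and 39.3 TPM with saline. The difference nearest to 0 in the list was that of Hp, haptoglobin, at 22.98, 15.9 and 13.4 TPM with CVAD and 24.8, 34.6 and 31.7 TPM with saline (log2 difference −0.79 ± 0.31). Wfdc21, a protease inhibitor domain protein and the member that overlapped, was listed at 0 in CVAD and at 6.38, 0 and 12.1 TPM in saline. S100a8 and S100a9, which encode calprotectin of neutrophil cytosol, were listed at 0 in every library of the table and could not be tested. Summed over the list, the level was 191, 155 and 124 TPM in CVAD and 378, 435 and 549.9 TPM in saline. In whole tissue, fewer cells of a type and less RNA per cell cannot be told apart.

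**Figure D2:**
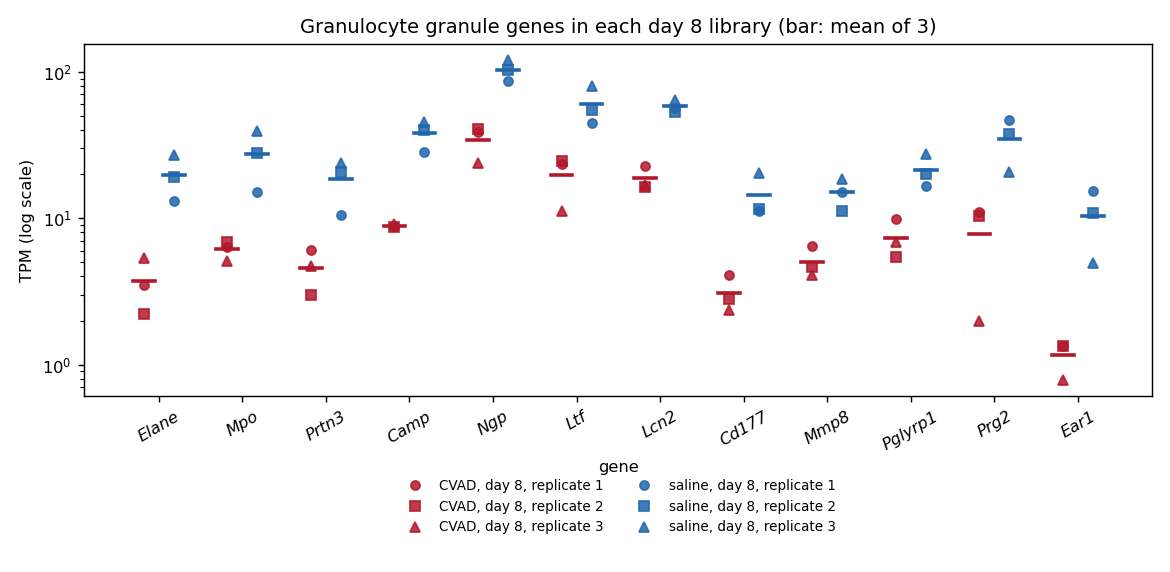
TPM on a log scale of 12 granule genes in each day 8 library, with CVAD in red to the left of saline in blue, a marker shape per replicate and a bar at the mean of 3. Elane to Prtn3 are azurophil, Camp to Pglyrp1 specific and late, and Prg2 and Ear1 eosinophil granule genes. In all 12 every CVAD point lies below every saline point. The 12 were picked with their values in view, and members that overlapped, among them Srgn, Ms4a3, Cst7 and Wfdc21, are not drawn.

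The promoters of 3 of these genes are shown because they hold motifs of well-known factors: PU.1, encoded by Spi1, and CCAAT/enhancer binding proteins such as that encoded by Cebpe switch granule genes on during maturation. The 250 bases before the RefSeq start (GRCm38.p6, 5′ to 3′ on the strand of the gene) were searched on both strands for GAGGAA, the core that PU.1 and other ETS factors recognise, and for TTGCNNAA, a site of CCAAT/enhancer binding proteins, and matches are in capitals. In the promoters shown, matches of the motifs do not overlap. Of 23 genes in the azurophil, specific and late lists, 20 had a promoter in the table. GAGGAA occurred in 11 of these 20 promoters, against 23.3% of all 32851, and TTGCNNAA in 6 of 20, against 9.56%. Elane (chr10:79886062-79886311, plus strand) and Prtn3 (chr10:79879417-79879666, plus strand), neighbouring genes on chromosome 10, hold 1 GAGGAA each, at −85 and −95 from the start. Ngp (chr9:110419558-110419807, plus strand) holds TTGCNNAA 2 times. The promoter of Camp holds 0 matches of either motif, and so does that of Epx.
Elane: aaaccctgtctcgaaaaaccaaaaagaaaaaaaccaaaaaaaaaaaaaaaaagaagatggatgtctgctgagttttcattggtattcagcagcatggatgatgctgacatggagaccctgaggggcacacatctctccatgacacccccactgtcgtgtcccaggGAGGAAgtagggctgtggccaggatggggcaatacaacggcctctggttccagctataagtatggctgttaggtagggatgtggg
Prtn3: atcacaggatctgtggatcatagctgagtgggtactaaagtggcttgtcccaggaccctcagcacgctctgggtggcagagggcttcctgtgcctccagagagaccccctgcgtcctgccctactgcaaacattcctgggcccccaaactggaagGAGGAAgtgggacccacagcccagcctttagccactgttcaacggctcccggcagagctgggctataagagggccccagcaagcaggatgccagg
Ngp: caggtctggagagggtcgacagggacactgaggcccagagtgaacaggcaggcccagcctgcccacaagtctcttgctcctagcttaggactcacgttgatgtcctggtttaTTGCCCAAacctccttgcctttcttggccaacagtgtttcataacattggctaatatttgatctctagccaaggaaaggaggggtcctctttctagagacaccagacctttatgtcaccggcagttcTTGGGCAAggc
A match describes the letters only, and binding was not measured.

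Receptors and signalling proteins of neutrophils, many of which other myeloid cells share, were lower by less. Of 17 tested genes 16 were lower, 13 without overlap, and the median difference was −0.85. Rac2, the GTPase that activates the NADPH oxidase in blood cells, was at 6.85, 4.84 and 4.67 TPM in CVAD ganglia, against 13.9, 13.3 and 14.7 TPM in saline ganglia (log2 difference −1.23 ± 0.24 (SE), limma adjusted p = 0.115). Pirb, an inhibitory immunoglobulin-like receptor, was at 3.96, 3.38 and 3.23 TPM in CVAD ganglia, against 8.09, 9.301 and 8.83 TPM in saline ganglia (log2 difference −1.11 ± 0.22 (SE), limma adjusted p = 0.115). Cybb, the catalytic subunit of that oxidase, was at 11.4, 9.35 and 8.05 TPM in CVAD ganglia, against 17.5, 15.5 and 22.7 TPM in saline ganglia (log2 difference −0.88 ± 0.23 (SE), limma adjusted p = 0.306). The groups were apart in all 3 genes, and the saline libraries of Rac2 lay within a narrow band. Cxcr2, the receptor for chemokines that release neutrophils from marrow, was at 1.49, 1.32 and 1.72 TPM with CVAD and 4.41, 4.63 and 5.03 TPM with saline. Csf3r, the receptor for G-CSF, was at 5.26, 6.602 and 5.17 TPM with CVAD and 12.04, 10.7 and 11.1 TPM with saline. Other genes with the smallest p-values, taken only among genes lower in CVAD without overlap, also belong to granulocytes or their relatives. Ifitm6, an interferon-induced transmembrane family member of myeloid cells, was at 3.33, 1.94 and 2.53 TPM in CVAD ganglia, against 17.1, 17.2 and 19.1 TPM in saline ganglia (log2 difference −2.40 ± 0.47 (SE), limma adjusted p = 0.115). Itgb2l, an integrin-like gene of neutrophils, was at 2.09, 0.905 and 0.621 TPM with CVAD and 5.06, 5.03 and 9.24 TPM with saline (log2 difference −1.76 ± 0.39 (SE), limma adjusted p = 0.185). Mcemp1, a membrane protein of mast cells and myeloid cells, was at 0.922, 0.943 and 0 TPM with CVAD and 5.01, 2.76 and 6.895 TPM with saline. Bin2, an adaptor of blood cells, was at 1.97, 2.77 and 1.29 TPM with CVAD and 6.25, 8.77 and 6.904 TPM with saline (log2 difference −1.48 ± 0.34 (SE), limma adjusted p = 0.185). For Trem3, a receptor of myeloid cells, all CVAD libraries were listed at 0, against 1.402, 4.81 and 5.87 TPM in saline.

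Genes of eosinophil granules were lower as well. All 6 tested genes of the list of 8 were lower in CVAD, 5 without overlap, with a median difference of −1.94. Prg2, the major basic protein, was at 10.99, 10.4 and 1.97 TPM in CVAD ganglia, against 46.6, 37.5 and 20.6 TPM in saline ganglia (log2 difference −2.20 ± 0.59 (SE), limma adjusted p = 0.381). Ear1, an eosinophil-associated ribonuclease, was at 1.34, 1.34 and 0.782 TPM in CVAD ganglia, against 15.3, 10.9 and 4.93 TPM in saline ganglia (log2 difference −2.29 ± 0.60 (SE), limma adjusted p = 0.337). Epx, eosinophil peroxidase, was listed at 0 with CVAD throughout, against 6.75, 5.79 and 3.46 TPM in saline. Within each group replicate 3 was the lowest for Prg2 and Ear1, and saline replicate 3 was the lowest saline library for Epx. Camp, Ngp, Cd177 and Pglyrp1, by contrast, were highest in saline replicate 3. The Ear genes are close relatives, so reads may have been split among them. Siglecf and Ccr3, surface receptors of eosinophils, were below the filter on low values. Mast cell and basophil genes differed less, with 7 of 8 tested genes lower and a median of −0.24. Mcpt8, a protease of basophils, was listed at 0 in CVAD and at 1.09, 1.65 and 1.05 TPM in saline, and Mcpt4, a protease of connective tissue mast cells, was at 15.3, 16.3 and 10.97 TPM with CVAD and 20.6, 18.9 and 20.4 TPM with saline. Cpa3, the mast cell carboxypeptidase, had a log2 difference of −0.02 ± 0.19.

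Regulators of blood cell precursors followed. Of 15 tested genes 13 were lower, 7 without overlap, with a median of −0.60. Cebpe, the factor that drives the specific granule stage, was at 1.39, 0 and 0 TPM in CVAD ganglia, against 4.79, 3.901 and 5.08 TPM in saline ganglia (log2 difference −2.06 ± 0.47 (SE), limma adjusted p = 0.185). Myb, a factor of immature precursors, was at 1.46, 0.666 and 0.889 TPM in CVAD ganglia, against 6.84, 7.35 and 3.08 TPM in saline ganglia (log2 difference −1.70 ± 0.41 (SE), limma adjusted p = 0.222). Ikzf1, a lymphoid and myeloid factor, was at 5.89, 6.14 and 4.16 TPM with CVAD and 11.3, 11.3 and 9.89 TPM with saline, and Spi1, which encodes PU.1, at 5.78, 7.09 and 5.803 TPM with CVAD and 12.2, 9.28 and 11.6 TPM with saline. These 4 genes were lower in every CVAD library than in any saline library. Gata2, a factor of stem and mast cells that vessels also express, overlapped at 6.81, 9.59 and 4.77 TPM with CVAD and 8.14, 5.98 and 5.22 TPM with saline. Platelet and megakaryocyte genes were lower in 9 of 10 tested members at a median of −0.77. Ppbp, a platelet chemokine, was at 9.27, 12.4 and 4.09 TPM with CVAD and 22.6, 38.5 and 17.3 TPM with saline, and Tubb1, the beta tubulin of platelets, at 2.18, 3.42 and 1.03 TPM with CVAD and 6.04, 5.81 and 5.29 TPM with saline, both without overlap, while Treml1 was listed at 0 in CVAD and at 1.98, 2.83 and 0.8101 TPM in saline. Pf4, which macrophages also make, was at 29.6, 26.6 and 20.1 TPM with CVAD and 22.99, 22.2 and 25.9 TPM with saline. Monocyte genes were lower in 6 of 7 tested members at a median of −0.73. Plac8, abundant in inflammatory monocytes and granulocytes, was at 5.89, 4.91 and 2.74 TPM with CVAD and 19.01, 16.1 and 21.3 TPM with saline, Ccr2, the chemokine receptor that brings monocytes into tissue, at 8.41, 8.63 and 5.13 TPM with CVAD and 16.9, 11.8 and 9.98 TPM with saline, and Itgal, a leukocyte integrin, at 3.03, 1.76 and 1.68 TPM with CVAD and 5.21, 5.19 and 7.28 TPM with saline. Spn, the sialophorin CD43, was at 2.03, 1.26 and 0.742 TPM with CVAD and 5.65, 4.58 and 5.30 TPM with saline (log2 difference −1.43 ± 0.33 (SE), limma adjusted p = 0.185).

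Marker lists of tissue next to the ganglion were read beside these genes. The erythroid list, which marks red cells and their precursors, was lower in 12 of 18 genes but without a gene that separated the groups. Its summed level was 376, 313 and 284 TPM in CVAD and 509.8, 449 and 224 TPM in saline. Its median difference of −0.52 ran from −1.48 without saline replicate 3 to −0.014 without saline replicate 1. Rhd, a red cell surface antigen, was at 0, 0 and 1.01 TPM with CVAD and 9.76, 7.25 and 0 TPM with saline, and Hba-a1, an alpha globin, at 20.2, 9.72 and 12.5 TPM with CVAD and 23.9, 22.7 and 0.818 TPM with saline, so that Rhd was listed at 0 in saline replicate 3 and in CVAD replicates 1 and 2. Camp, Elane and Mpo were highest in saline replicate 3. The bone, osteoclast and cartilage list was lower in 13 of 16 tested genes at a median of −0.19, which turned to 0.062 without CVAD replicate 3. Dmp1, a matrix protein of osteocytes, was at 0.498, 0.714 and 0.935 TPM with CVAD and 1.52, 1.58 and 2.27 TPM with saline, and the list summed to 556, 601 and 369 TPM in CVAD and 544, 578 and 481 TPM in saline. The adipocyte list was lower in 9 of 11 tested genes at a median of −0.52, which ran from −0.777 with saline replicate 1 left out to −0.274 with CVAD replicate 3 left out, and summed to 469, 445 and 311 TPM in CVAD and 433, 541 and 555 TPM in saline. Adipoq, the fat hormone adiponectin, was at 7.64, 7.63 and 2.81 TPM with CVAD and 12.2, 13.2 and 17.9 TPM with saline, and Fabp4, a fatty acid carrier of fat cells and vessels, at 14.5, 9.89 and 6.91 TPM with CVAD and 16.1, 16.8 and 27.4 TPM with saline. Dmp1, Adipoq and Fabp4 were lower in CVAD without overlap. Matn1, of cartilage, was listed at 0 in every library, and the part of marrow, bone or fat in the lower granulocyte genes was not tested.

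Genes of cell division were lower in CVAD. Of 25 tested genes of G2 and mitosis 24 were lower, 13 at an unadjusted p under 0.05 and 11 without overlap, at a median of −0.72. Top2a, the topoisomerase that doxorubicin poisons in dividing cells, was at 8.603, 6.39 and 1.78 TPM in CVAD ganglia, against 25.8, 18.5 and 8.61 TPM in saline ganglia (log2 difference −1.56 ± 0.58 (SE), limma adjusted p = 0.636). Mki67, the Ki-67 protein of cycling cells, was at 6.54, 6.51 and 1.78 TPM in CVAD ganglia, against 19.1, 15.9 and 6.64 TPM in saline ganglia (log2 difference −1.34 ± 0.48 (SE), limma adjusted p = 0.599). Ccnb1, cyclin B1, was at 1.75, 1.46 and 0.967 TPM in CVAD ganglia, against 6.53, 6.34 and 2.64 TPM in saline ganglia (log2 difference −1.31 ± 0.43 (SE), limma adjusted p = 0.543). In these genes replicate 3 was the lowest of each group, and for Top2a and Mki67 saline replicate 3 was close to CVAD replicate 1. The exception was Kif23, a motor of cell separation, at 17.3, 15.1 and 17.1 TPM with CVAD and 15.3, 12.9 and 11.1 TPM with saline. Kif11, a spindle motor, was at 3.74, 4.75 and 2.98 TPM with CVAD and 8.38, 8.04 and 5.23 TPM with saline, and Tpx2, a spindle assembly factor whose groups overlapped, at 2.9998, 4.53 and 2.05 TPM with CVAD and 6.95, 7.99 and 4.01 TPM with saline. Top2b, the topoisomerase II of cells that do not divide, neurons included, was at 44.96, 45.8 and 42.4 TPM with CVAD and 48.5, 40.3 and 45.9 TPM with saline. S phase genes were lower in 19 of 22 at a median of −0.21. Without saline replicate 1 the S phase median was −0.106 and the G2 and mitosis median −0.461. Uhrf1, which keeps DNA methylation through replication, was at 3.67, 3.597 and 0.737 TPM with CVAD and 11.9, 7.99 and 4.48 TPM with saline, Cdt1, which licenses replication origins, at 3.73, 4.03 and 1.31 TPM with CVAD and 7.64, 6.51 and 5.75 TPM with saline, and Rrm1, a subunit of ribonucleotide reductase, at 17.95, 18.9 and 16.003 TPM with CVAD and 25.9, 19.8 and 24.8 TPM with saline. Pcna, the replication clamp that resting cells also use for repair, overlapped at 43.4, 49.4 and 46.8 TPM with CVAD and 57.1, 48.1 and 46.7 TPM with saline.

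Replication-dependent histone genes, which supply histones during S phase, were lower in CVAD almost throughout. Their messages end in a stem-loop and lack a poly(A) tail, so libraries made by depletion of ribosomal RNA keep them. Of 63 tested genes 62 were lower in CVAD, 46 at an unadjusted p under 0.05 and 43 without overlap, at a median of −0.60. Summed over the list, the level was 1769, 1704 and 1452 TPM in CVAD and 3232, 2634 and 2049 TPM in saline. H3c8 (ENSMUSG00000099517.3, chromosome 13), an H3 gene, was at 18.05, 16.9 and 10.2 TPM in CVAD ganglia, against 54.8, 37.4 and 24.02 TPM in saline ganglia (log2 difference −1.27 ± 0.33 (SE), limma adjusted p = 0.306). H2bc15 (ENSMUSG00000095217.2, chromosome 13), an H2B gene, was at 34.6, 32.6 and 20.5 TPM in CVAD ganglia, against 90.4, 63.3 and 52.6 TPM in saline ganglia (log2 difference −1.21 ± 0.32 (SE), limma adjusted p = 0.337). H3c7 was at 22.2, 20.3 and 15.9 TPM in CVAD ganglia, against 51.997, 37.6 and 27.5 TPM in saline ganglia (log2 difference −0.93 ± 0.26 (SE), limma adjusted p = 0.421). The groups were apart in each, with saline replicate 1 the highest and CVAD replicate 3 the lowest library. By type, the median difference was −1.08 for 12 H3 genes, −0.83 for 17 H2A genes, −0.60 for 17 H2B genes, −0.51 for 5 H1 genes and −0.45 for 12 H4 genes. All 53 genes of the clusters on chromosome 13 were lower, and 9 of the 10 on chromosome 3. The exception was H2bc21 on chromosome 3, whose message is also made with a poly(A) tail, at 12.3, 9.595 and 12.3 TPM with CVAD and 11.1, 6.004 and 8.504 TPM with saline. Histone variant genes that are made outside S phase, chosen after the values were seen, had a median of −0.12 over 6 genes. Many of these genes are nearly identical in sequence, so the split of reads among copies is uncertain. The median of the list stayed between −0.812 and −0.435 over the omission of each library in turn, lowest without saline replicate 3 and highest without saline replicate 1.

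**Figure D3:**
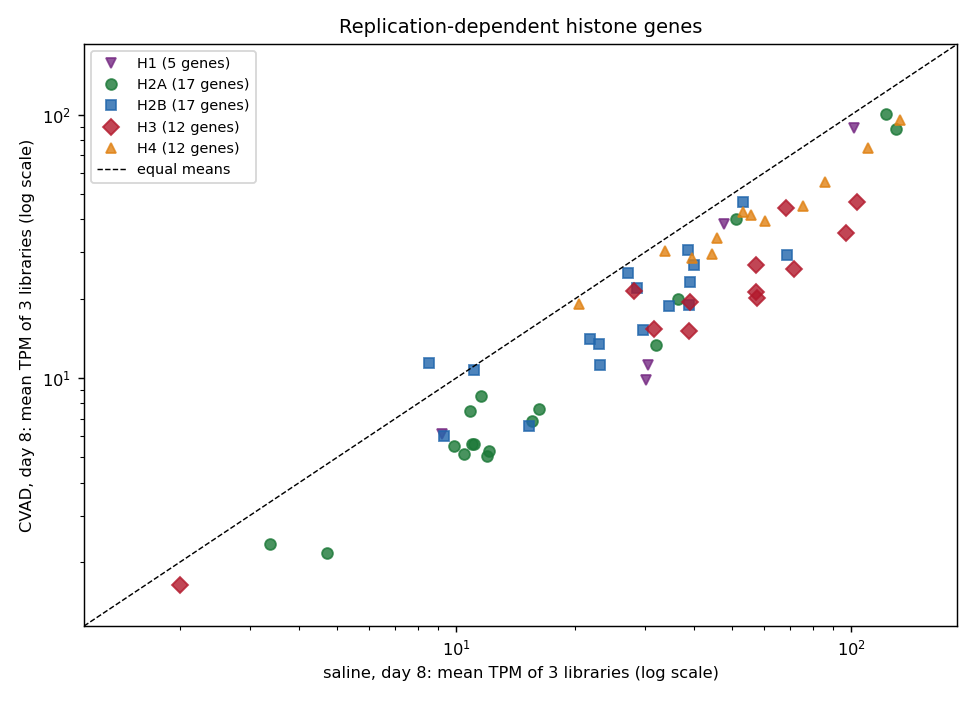
Mean TPM of 63 replication-dependent histone genes in CVAD (y axis) against saline (x axis) on day 8, both on log scales, with a marker per histone type and a dashed line of equal means. Nearly all points lie below the line.

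The 2 histone promoters are shown for their repeated CCAAT boxes, a common element of histone promoters, with a match of TATAAA in H2bc15. They are written as above and searched on both strands for CCAAT and TATAAA, which do not overlap, with matches in capitals. CCAAT occurred in 46 of 56 histone promoters, against 33.8% of all promoters, and TATAAA in 27 of 56, against 12.4%. H3c8 (chr13:23535168-23535417, plus strand) and H2bc15 (chr13:21753826-21754075, plus strand) hold 3 CCAAT each, and H2bc15 holds 1 TATAAA on the other strand.
H3c8: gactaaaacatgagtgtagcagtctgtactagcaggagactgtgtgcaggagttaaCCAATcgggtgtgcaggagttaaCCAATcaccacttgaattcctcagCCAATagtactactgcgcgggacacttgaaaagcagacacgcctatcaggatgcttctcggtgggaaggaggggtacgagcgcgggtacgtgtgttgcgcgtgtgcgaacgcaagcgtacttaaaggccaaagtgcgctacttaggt
H2bc15: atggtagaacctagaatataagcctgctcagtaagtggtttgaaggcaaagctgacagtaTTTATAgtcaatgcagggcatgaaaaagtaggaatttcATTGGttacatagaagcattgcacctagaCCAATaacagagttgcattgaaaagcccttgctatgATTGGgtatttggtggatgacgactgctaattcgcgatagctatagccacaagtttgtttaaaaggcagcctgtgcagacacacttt
The capitals reading ATTGG and TTTATA are the same motifs on the opposite strand.

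Lymphocyte genes had negative medians, with few genes that separated the groups. B lineage genes had a lower mean in all 16 tested members of a list of 20, but 1 gene separated the groups and 2 had an unadjusted p under 0.05. Among all genes 44.7% were lower, and 4.58% were lower without overlap. The B lineage median of −0.56 ran from −0.873 without saline replicate 3 to −0.447 without CVAD replicate 3. Igkc, the kappa light chain, was at 17.1, 12.1 and 2.76 TPM in CVAD ganglia, against 17.8, 47.8 and 28.5 TPM in saline ganglia (log2 difference −1.64 ± 0.58 (SE), limma adjusted p = 0.599). Pax5, the factor of B cell identity, was at 0.541, 0.246 and 0.104 TPM with CVAD and 3.07, 2.64 and 0.361 TPM with saline, and Vpreb3, a gene of B cell precursors, was listed at 0 in CVAD and at 3.305, 3.5003 and 0 TPM in saline. CVAD replicate 3 was the lowest library for Igkc, and saline replicate 3 the lowest saline library for Pax5. T and NK cell genes were tested in 11 of 21 members, since Cd3d, Cd3e, Cd3g and Gzmb were listed at 0 in every library and 6 others were under the filter. Of these 11, 9 were lower at a median of −0.56. Lck, the kinase of the T cell receptor, was at 3.003, 3.05 and 2.18 TPM with CVAD and 5.36, 3.09 and 5.33 TPM with saline, and Trbc1, a constant part of the T cell receptor, was listed at 0 in CVAD and at 3.09, 2.61 and 1.68 TPM in saline. The genes of MHC class II, which present antigen to T cells, were lower in 7 of 9 without a gene past an unadjusted p of 0.05. Cd74, the invariant chain, was at 123, 129 and 61.7 TPM with CVAD and 144, 151 and 101 TPM with saline, and H2-Ab1 at 84.8, 76.98 and 38.2 TPM with CVAD and 96.2, 104 and 61.1 TPM with saline. Their median of −0.38 was −0.039 without CVAD replicate 3, the lowest library.

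Resident macrophages of the ganglion, which surround neuron cell bodies, differed by gene. Of 25 tested genes 17 were lower and 8 higher, 6 lower and 2 higher without overlap, and the median of −0.05 was 0.073 without CVAD replicate 3. Ptprc, the pan-leukocyte antigen CD45, was at 17.4, 17.96 and 12.6 TPM in CVAD ganglia, against 29.1, 24.5 and 22.96 TPM in saline ganglia (log2 difference −0.65 ± 0.21 (SE), limma adjusted p = 0.537). Fcer1g, a signalling chain of myeloid Fc receptors, was at 26.9, 23.1 and 24.05 TPM with CVAD and 41.5, 29.04 and 39.6 TPM with saline, and Lyz2, lysozyme of all myeloid cells, at 97.2, 102 and 90.98 TPM with CVAD and 108, 119 and 132 TPM with saline. These genes, which granulocytes and monocytes express too, were lower without overlap. Not all members that were lower without overlap are named here, so shared and more particular genes were not compared as sets. The genes more particular to macrophages that follow were picked with their values in view, and they overlapped or were higher. C1qa, a complement subunit, was at 52.8, 53.7 and 41.5 TPM with CVAD and 52.7, 37.1 and 52.8 TPM with saline, and Csf1r, the receptor that keeps macrophages alive, at 39.2, 35.4 and 29.98 TPM with CVAD and 40.4, 30.8 and 35.8 TPM with saline. Mertk, a receptor for the uptake of dying cells, was at 43.1, 40.6 and 28.3 TPM in CVAD ganglia, against 27.9, 22.2 and 23.9 TPM in saline ganglia (log2 difference 0.56 ± 0.20 (SE), limma adjusted p = 0.599). Lyve1, which marks a perivascular type of macrophage and lymph vessels, was at 14.4, 15.7 and 16.1 TPM in CVAD ganglia, against 10.3, 8.03 and 11.7 TPM in saline ganglia (log2 difference 0.59 ± 0.20 (SE), limma adjusted p = 0.581). For Mertk and Lyve1 every CVAD library was above every saline library.

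Among cytokines, Il1b, interleukin 1 beta, was at 0.795, 0 and 0 TPM with CVAD and 2.73, 3.87 and 2.99 TPM with saline, and Il1rn, its natural antagonist, at 0.281, 1.39 and 1.12 TPM with CVAD and 2.65, 1.48 and 3.21 TPM with saline, both lower without overlap and both made by neutrophils and macrophages. Ccl2, a monocyte attractant, overlapped at 5.85, 7.94 and 15.5 TPM with CVAD and 13.5, 7.47 and 12.7 TPM with saline, as did Cxcl12, a chemokine of stromal cells, at 59.9, 73.7 and 64.4 TPM with CVAD and 74.6, 72.5 and 72.6 TPM with saline. Tnf, tumour necrosis factor, was listed at 0 in 2 libraries of each group. Il6 was below the filter and Il10 was listed at 0 throughout. The list had 6 genes higher and 9 lower of 16 tested, at a median of −0.12, which was 0.015 without CVAD replicate 1. Of 26 interferon-induced and MHC class I genes 18 were lower and 8 higher at a median of −0.17, which was −0.048 without CVAD replicate 3. At an unadjusted p under 0.05, 6 were lower and 1 higher, and 5 were lower and 1 higher without overlap. Tap1, a transporter that loads peptides onto class I, was at 13.1, 17.2 and 14.96 TPM in CVAD ganglia, against 29.4, 22.1 and 22.1 TPM in saline ganglia (log2 difference −0.66 ± 0.17 (SE), limma adjusted p = 0.306). Psmb8, an immunoproteasome subunit, was at 17.9, 13.1 and 13.1 TPM with CVAD and 24.98, 21.2 and 19.1 TPM with saline, and H2-K1, a class I heavy chain, at 98.2, 107 and 91.9 TPM with CVAD and 126, 127 and 110.1 TPM with saline, all without overlap. Isg15, a ubiquitin-like protein that interferon induces, overlapped at 16.2, 15.2 and 13.2 TPM with CVAD and 23.2, 24.04 and 15.9 TPM with saline, and Ifi27 was at 178, 181 and 155 TPM with CVAD and 173, 179 and 182 TPM with saline. Toll-like receptor and inflammasome genes had a median of −0.04 over 16 tested genes, with Tlr9, a sensor of microbial DNA, at 2.21, 2.37 and 1.51 TPM with CVAD and 3.49, 3.52 and 2.56 TPM with saline. Complement genes were higher in 6 of 11, and the sign of their median turned when 1 library was left out.

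Among genes higher in CVAD, inducible chaperones stood near the top. Hspa1a (ENSMUSG00000091971.4, chromosome 17) and Hspa1b (ENSMUSG00000090877.4, chromosome 17) encode the same stress-induced HSP70 protein. Hspa1a was at 36.4, 38.3 and 54.2 TPM in CVAD ganglia, against 16.6, 21.996 and 23.7 TPM in saline ganglia (log2 difference 1.01 ± 0.23 (SE), limma adjusted p = 0.185). Hspa1b was at 36.3, 37.1 and 46.5 TPM in CVAD ganglia, against 19.1, 23.8 and 23.9 TPM in saline ganglia (log2 difference 0.81 ± 0.18 (SE), limma adjusted p = 0.185). CVAD replicate 3 was the highest library of both, and the groups did not overlap. As near-identical copies the pair cannot be counted as separate evidence. Dnajb1, the HSP40 partner of HSP70, was at 47.4, 54.2 and 51.5 TPM in CVAD ganglia, against 43.8, 39.5 and 37.5 TPM in saline ganglia (log2 difference 0.34 ± 0.12 (SE), limma adjusted p = 0.599), and Hspa4l, a nucleotide exchange factor for HSP70, was at 68.5, 71.6 and 74.3 TPM with CVAD and 66.3, 61.9 and 56.8 TPM with saline. Other chaperones differed less. Hspa8, the housekeeping HSP70, overlapped at 514, 506 and 514 TPM with CVAD and 452, 454 and 520.2 TPM with saline, as did Bag3, an inducible co-chaperone, at 132, 136 and 119 TPM with CVAD and 127, 149 and 129 TPM with saline. Of 16 chaperone genes 12 were higher, 4 without overlap, at a median of 0.12.

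Genes of stress in the endoplasmic reticulum were higher in 17 of 21, with 5 at an unadjusted p under 0.05 and a median of 0.12. Creld2 (ENSMUSG00000023272.5, chromosome 15), a secreted protein that this stress induces, was at 25.96, 33.8 and 39.1 TPM in CVAD ganglia, against 24.6, 18.1 and 16.2 TPM in saline ganglia (log2 difference 0.72 ± 0.18 (SE), limma adjusted p = 0.29). Herpud1, a membrane protein of protein disposal from this compartment, was at 90.7, 85.3 and 78.996 TPM in CVAD ganglia, against 69.8, 66.1 and 73.2 TPM in saline ganglia (log2 difference 0.28 ± 0.09 (SE), limma adjusted p = 0.488). Trib3, a pseudokinase of the integrated stress response, was at 8.85, 8.05 and 8.96 TPM with CVAD and 6.13, 6.15 and 5.36 TPM with saline. The groups did not overlap in these 3 genes, and Creld2 had the widest spread of them within CVAD. Eif2ak3, which encodes the stress sensor PERK, was at 55.9, 56.02 and 48.7 TPM with CVAD and 46.2, 44.8 and 49.3 TPM with saline with overlap. Hspa5, the main chaperone of the compartment, was at 125, 148 and 136 TPM with CVAD and 128, 128 and 119 TPM with saline, and Ddit3, the factor CHOP, at 36.1, 48.3 and 41.3 TPM with CVAD and 42.6, 34.1 and 38.5 TPM with saline, and both overlapped.

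Metallothioneins, small metal-binding proteins that glucocorticoids, metals and stress induce, were higher. Mt2 (ENSMUSG00000031762.8, chromosome 8) was at 90.4, 97.03 and 59.5 TPM in CVAD ganglia, against 40.2, 29.7 and 46.5 TPM in saline ganglia (log2 difference 1.06 ± 0.25 (SE), limma adjusted p = 0.225). Mt1 was at 110.1, 98.5 and 88.95 TPM in CVAD ganglia, against 80.6, 62.1 and 82.5 TPM in saline ganglia (log2 difference 0.40 ± 0.12 (SE), limma adjusted p = 0.443). CVAD replicate 3 was the lowest of its group in both genes and still above the highest saline library. Both belong to the list of the glucocorticoid receptor and its targets, in which 21 of 23 tested genes were higher and 2 did not overlap, at a median of 0.23. Among all genes 54.2% were higher, and 5.41% were higher without overlap. The other classic targets did not separate the groups. Fkbp5, a chaperone of the receptor that dexamethasone induces in many tissues, was at 100.3, 95.3 and 56.8 TPM in CVAD ganglia, against 53.7, 50.6 and 77.7 TPM in saline ganglia (log2 difference 0.45 ± 0.26 (SE), limma adjusted p = 0.895). Per1, a clock gene and receptor target, was at 65.6, 63.7 and 31.7 TPM in CVAD ganglia, against 23.1, 26.9 and 64.9 TPM in saline ganglia (log2 difference 0.56 ± 0.31 (SE), limma adjusted p = 0.89). Zbtb16, a zinc finger factor, was at 68.2, 61.1 and 15.1 TPM with CVAD and 21.4, 15.6 and 32.7 TPM with saline, and Sgk1, a kinase of ion transport, at 77.4, 58.5 and 40.3 TPM with CVAD and 39.5, 30.8 and 44.3 TPM with saline. In these 4 genes CVAD replicates 1 and 2 were the highest or among the highest libraries, while CVAD replicate 3 lay among or below the saline values and saline replicate 3 was the highest of saline. Tsc22d3, the glucocorticoid-induced leucine zipper, was at 146, 152 and 103 TPM with CVAD and 109, 128 and 120.3 TPM with saline, and Nr3c1, the receptor itself, at 53.8, 58.8 and 54.6 TPM with CVAD and 66.5, 45.9 and 52.1 TPM with saline. The list summed to 1566, 1504 and 1050.0 TPM in CVAD and 1095, 1006 and 1198 TPM in saline, and its median was 0.445 without CVAD replicate 3.

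**Figure D4:**
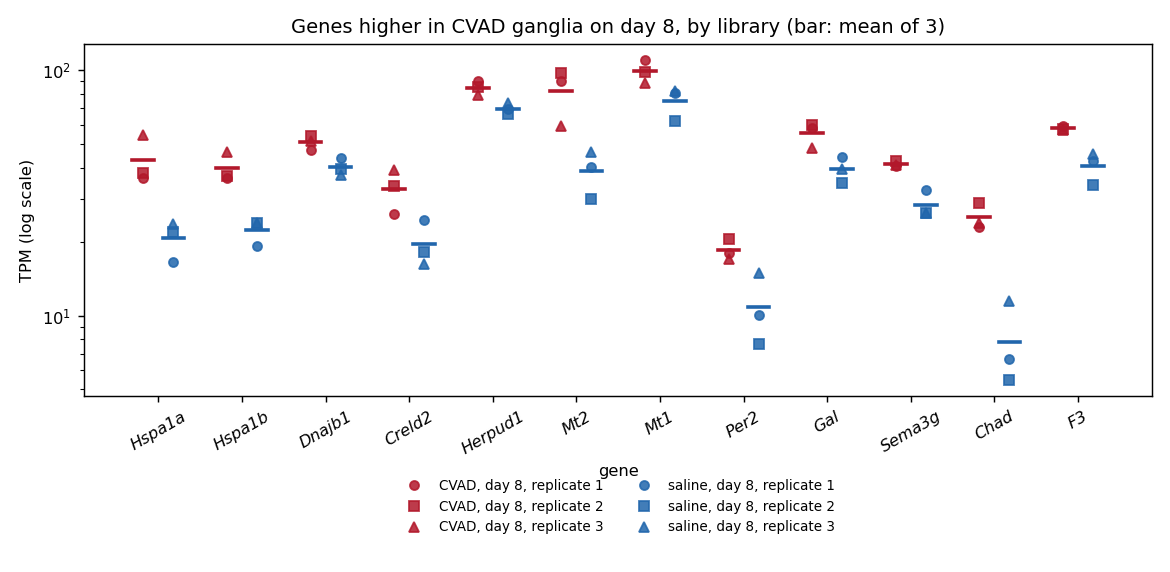
TPM on a log scale of 12 genes higher in CVAD, in each day 8 library, drawn as in the plot of granule genes. In all 12 the CVAD points lie above the saline points, by a wide gap in Chad and Hspa1a and by a narrow one in Creld2, Herpud1, Dnajb1 and Mt1. The 12 were picked with their values in view, and members that overlapped, among them Hspa8, Bag3, Hspa5 and Fkbp5, are not drawn.

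The promoters of Mt2 and Creld2 are shown because the elements that induce them are known. Mt2 (chr8:94172368-94172617, plus strand) was searched on both strands for TGCNCNC, a looser form of the core of the metal response element. It holds this motif 5 times, while 44.4% of all promoters hold it at least once. The core itself has A or G at the first N, so the stretches TGCTCTC and GGGAGCA fall outside it. Creld2 (chr15:88819396-88819645, plus strand) was searched on both strands for the endoplasmic reticulum stress element, a CCAAT box and CCACG at a fixed distance, and holds 1, on the minus strand at −126 from the start. That element occurs in 0.113% of all promoters and in 5 of 20 promoters of the stress list. Matches are in capitals, and opposite-strand matches read as the reverse complement.
Mt2: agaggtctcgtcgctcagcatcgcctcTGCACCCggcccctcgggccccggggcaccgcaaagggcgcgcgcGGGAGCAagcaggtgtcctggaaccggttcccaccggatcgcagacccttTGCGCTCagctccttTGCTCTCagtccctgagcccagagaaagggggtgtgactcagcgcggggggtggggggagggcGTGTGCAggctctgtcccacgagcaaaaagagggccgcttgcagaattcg
Creld2: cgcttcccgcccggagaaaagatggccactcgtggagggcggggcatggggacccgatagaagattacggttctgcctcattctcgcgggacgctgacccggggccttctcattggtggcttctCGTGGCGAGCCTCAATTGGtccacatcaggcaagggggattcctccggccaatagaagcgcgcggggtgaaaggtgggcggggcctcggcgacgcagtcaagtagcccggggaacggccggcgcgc
For the other lists the same search gave 2 of 13 chaperone promoters with a heat shock element, against 0.466% of all. The promoters of Hspa1a and Hspa1b hold 0 matches of that element, and the promoter of Herpud1 holds 0 of the stress element. A palindromic glucocorticoid response element occurred in 4 of 20 promoters of its target list, against 0.387%, and the E-box CACGTG in 5 of 16 clock promoters, against 6.02%.

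Clock genes were higher in 15 of 17 tested, 2 of them without overlap, at a median of 0.25 that was 0.028 without saline replicate 2. Among all genes 54.2% were higher, and 5.41% were higher without overlap. Per2, which represses its own transcription in the clock loop, was at 18.1, 20.6 and 16.97 TPM in CVAD ganglia, against 10.02, 7.69 and 14.9 TPM in saline ganglia (log2 difference 0.76 ± 0.22 (SE), limma adjusted p = 0.423). Hlf, a clock output factor, was at 35.9, 34.98 and 42.2 TPM with CVAD and 32.9, 19.1 and 34.6 TPM with saline, again without overlap, and Nr1d1, the repressor REV-ERB alpha, overlapped at 59.4, 40.04 and 64.4 TPM with CVAD and 48.3, 23.8 and 80.5 TPM with saline. The time of day of tissue collection is not given in the sources used here. Immediate early genes, which neuronal activity and stress induce, were higher in 11 of 16 tested, 5 without overlap, and 1 gene was lower without overlap. Their median of 0.071 was 0.023 without saline replicate 3. Egr3 was at 15.8, 16.1 and 26.1 TPM with CVAD and 11.97, 13.999 and 12.4 TPM with saline and Nr4a2, a nuclear receptor, at 31.95, 33.4 and 30.5 TPM with CVAD and 29.8, 19.2 and 19.1 TPM with saline, both higher without overlap. Fos was at 14.7, 16.6 and 12.6 TPM with CVAD and 18.7, 32.1 and 15.2 TPM with saline and Egr1 at 19.4, 20.5 and 20.7 TPM with CVAD and 19.6, 26.8 and 26.5 TPM with saline, and neither separated the groups in either direction.

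Other genes with the smallest p-values, taken only among genes higher in CVAD without overlap, came from several cell types. Sema3g, a class 3 semaphorin of arteries, was at 40.8, 42.9 and 41.2 TPM in CVAD ganglia, against 32.4, 26.2 and 26.3 TPM in saline ganglia (log2 difference 0.55 ± 0.12 (SE), limma adjusted p = 0.185). Chad, chondroadherin, a leucine-rich matrix protein of cartilage and other connective tissue, was at 22.95, 28.8 and 23.9 TPM in CVAD ganglia, against 6.62, 5.45 and 11.4 TPM in saline ganglia (log2 difference 1.62 ± 0.37 (SE), limma adjusted p = 0.185). F3, tissue factor, which starts blood clotting, was at 59.04, 57.8 and 57.2 TPM in CVAD ganglia, against 42.6, 34.04 and 45.4 TPM in saline ganglia (log2 difference 0.51 ± 0.13 (SE), limma adjusted p = 0.306). Each of the 3 separated the groups by this choice, and the CVAD libraries of F3 and Sema3g lay close together. Clcn2, a chloride channel of neurons and glia, was at 62.8, 65.1 and 67.3 TPM with CVAD and 56.4, 34.3 and 43.4 TPM with saline, the saline values being far apart. Ttll4, an enzyme that adds glutamate to tubulin and other proteins, was at 26.2, 25.1 and 24.7 TPM with CVAD and 21.04, 14.8 and 14.5 TPM with saline. Galnt16, a glycosyltransferase, was at 43.7, 48.2 and 39.04 TPM with CVAD and 30.7, 23.7 and 30.4 TPM with saline, Wnt2b, a secreted Wnt ligand, at 32.8, 31.1 and 35.2 TPM with CVAD and 25.4, 25.2 and 25.2 TPM with saline, and Zbtb40, a zinc finger protein, at 15.7, 17.8 and 16.3 TPM with CVAD and 12.8, 10.2 and 13.2 TPM with saline. By the same choice none of these sets overlapped, and the saline values of Wnt2b were almost equal. The remaining 3 were low or little studied. Wfdc3, a protease inhibitor domain protein, was at 4.36, 5.25 and 3.72 TPM with CVAD and 1.04, 0 and 0.584 TPM with saline, Pramel12 at 24.1, 18.9 and 25.2 TPM with CVAD and 17.4, 12.9 and 15.8 TPM with saline, and Mir3089, a microRNA gene, at 5.67, 4.51 and 4.57 TPM with CVAD and 0, 0 and 1.62 TPM with saline. Their adjusted p-values in limma, with those of the genes above, ran from 0.185 to 0.421.

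Markers of axon injury in sensory neurons were higher in 16 of 20 tested genes, 2 without overlap, at a median of 0.16. Among all genes 54.2% were higher, and 5.41% were higher without overlap. The median of the injury list was 0.062 without saline replicate 2 and 0.246 without CVAD replicate 1. Gal, the neuropeptide galanin that injured neurons make, was at 58.1, 60.04 and 48.2 TPM in CVAD ganglia, against 44.1, 34.6 and 39.7 TPM in saline ganglia (log2 difference 0.48 ± 0.17 (SE), limma adjusted p = 0.6). Nts, neurotensin, was at 11.6, 23.1 and 15.2 TPM with CVAD and 10.4, 8.71 and 12.3 TPM with saline with overlap, and Cckbr, a receptor for cholecystokinin, was low at 0.675, 1.68 and 1.29 TPM with CVAD and 0.546, 0 and 0.3904 TPM with saline. Atf3, the factor that axotomy switches on, was at 11.5, 32.6 and 24.4 TPM in CVAD ganglia, against 15.98, 9.53 and 20.7 TPM in saline ganglia (log2 difference 0.49 ± 0.33 (SE), limma adjusted p = 0.934). CVAD replicates 2 and 3 exceeded the saline libraries for Atf3 and CVAD replicate 1 did not. Sprr1a, strongly induced after nerve cut, was listed at 0 in every library, Gap43, a growth cone protein, was at 123, 135 and 107 TPM with CVAD and 121, 131 and 116 TPM with saline, and Sox11, a regeneration factor, at 11.8, 15.2 and 16.6 TPM with CVAD and 13.5, 10.3 and 14.2 TPM with saline. The programme of axon degeneration had 9 genes higher and 9 lower of 18 at a median of −0.01. Sarm1, the NAD-consuming enzyme that executes it, was at 60.5, 61.4 and 54.3 TPM with CVAD and 60.3, 63.5 and 62.04 TPM with saline, and Nmnat2, the NAD-making enzyme that holds it back, at 108, 112 and 97.6 TPM with CVAD and 107, 121 and 106 TPM with saline.

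Lists of genes that set the excitability and identity of sensory neurons had medians close to the median of all genes. The median difference was −0.03 over 11 sodium channel genes, 0.004 over 32 potassium channel genes, 0.009 over 14 calcium channel genes and 0.002 over 26 pacemaker, TRP, Piezo, ATP-gated and acid-sensing channels. The sign of each of these medians turned when 1 library was left out. Of the calcium channel genes 2 were higher and 2 lower without overlap. In the potassium channel list, and in the list of pacemaker to acid-sensing channels, 1 gene each was higher without overlap. Among all genes 5.41% were higher and 4.58% lower without overlap. Across these lists 1 gene had an unadjusted p under 0.05. It was Cacna1e, the pore of R-type calcium channels, at 24.5, 25.8 and 28.99 TPM in CVAD ganglia, against 21.5, 20.05 and 20.5 TPM in saline ganglia (log2 difference 0.34 ± 0.16 (SE), limma adjusted p = 0.827). Scn9a, the nociceptor channel Nav1.7, was at 135, 137 and 118 TPM with CVAD and 138, 141 and 130.3 TPM with saline, and Scn10a at 267, 289 and 239 TPM with CVAD and 252, 298 and 259 TPM with saline. Trpv1, the receptor for heat and capsaicin, was at 91.4, 95.1 and 72.3 TPM in CVAD ganglia, against 93.5, 88.8 and 92.5 TPM in saline ganglia (log2 difference −0.10 ± 0.13 (SE), limma adjusted p = 0.985). Trpa1, the receptor for irritants, was at 48.3, 47.8 and 46.3 TPM with CVAD and 40.9, 42.9 and 48.03 TPM with saline, Piezo2, the touch channel, at 221, 214 and 176 TPM with CVAD and 216, 221 and 199.8 TPM with saline, and Cacna2d1, the target of gabapentin, at 123, 138 and 119 TPM with CVAD and 134, 150.4 and 124 TPM with saline. Scn9a, Scn10a, Trpv1, Trpa1, Piezo2 and Cacna2d1 overlapped between groups. CVAD replicate 3 was the lowest library for Scn9a, Scn10a, Trpv1 and Piezo2.

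Neuropeptides and subtype markers were alike in range. Calca, the precursor of CGRP, was at 265, 297 and 232 TPM in CVAD ganglia, against 267, 301 and 245 TPM in saline ganglia (log2 difference −0.04 ± 0.12 (SE), limma adjusted p = 1). Tac1, the precursor of substance P, was at 123, 138 and 114 TPM with CVAD and 130.5, 154 and 122 TPM with saline. The median was 0.02 for 15 peptidergic genes, 0.06 for 17 genes of non-peptidergic and itch neurons and −0.03 for 18 genes of touch and position sense. Mrgprb5, a receptor of itch neurons, was at 63.6, 49.3 and 61.8 TPM with CVAD and 50.6, 53.3 and 42.7 TPM with saline, and Osmr, the oncostatin M receptor of itch neurons, at 52.1, 52.04 and 52.9 TPM with CVAD and 46.6, 40.4 and 48.6 TPM with saline. Osmr did not overlap between groups. Napepld, which makes endocannabinoids, was at 16.6, 16.9 and 14.5 TPM in CVAD ganglia, against 14.2, 8.66 and 10.96 TPM in saline ganglia (log2 difference 0.49 ± 0.16 (SE), limma adjusted p = 0.535). Oprm1, the mu opioid receptor, was at 88.8, 87.6 and 83.9 TPM with CVAD and 78.7, 83.4 and 78.6 TPM with saline, a small difference without overlap. Transcription factors of sensory neuron identity had a median of −0.07 over 15 genes, with Pou4f1 at 96.1, 93.999 and 82.3 TPM with CVAD and 90.6, 103 and 98.2 TPM with saline.

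Tubulins, the targets of vincristine, and the axonal transport genes were near the median of all genes too. Tubb3, the neuronal beta tubulin, was at 337, 362 and 291 TPM in CVAD ganglia, against 316, 381 and 316 TPM in saline ganglia (log2 difference −0.03 ± 0.12 (SE), limma adjusted p = 1). The 14 tested tubulin genes had a median of −0.04, the 25 transport and microtubule genes of −0.04, and the 5 neurofilament genes of −0.07, with no gene of these lists past an unadjusted p of 0.05. Tubb5, a widely made beta tubulin, was at 202, 223 and 171 TPM with CVAD and 214, 239 and 199 TPM with saline, Kif5a, the kinesin of neurons, at 201, 214 and 172 TPM with CVAD and 197, 227 and 202 TPM with saline, and Nefl, the light neurofilament, at 267, 291 and 216 TPM with CVAD and 259, 313 and 241 TPM with saline. Direction was not stable for these genes: without CVAD replicate 3 the differences of Tubb3, Nefl and Calca were 0.0530, 0.0489 and 0.0531. Equality of the groups is not shown by a p that misses the threshold.

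DNA damage genes lay on both sides of 0. The p53 targets had 10 genes higher and 13 lower of 23 tested at a median of −0.02. Cdkn1a, the cell cycle inhibitor p21, was at 109.6, 114 and 89.97 TPM in CVAD ganglia, against 97.4, 72.1 and 115 TPM in saline ganglia (log2 difference 0.16 ± 0.16 (SE), limma adjusted p = 0.971). Perp, a p53 target of cell death and junctions, was at 27.1, 28.4 and 25.4 TPM with CVAD and 18.6, 19.3 and 21.03 TPM with saline, higher without overlap, and Btg2, a brake on proliferation, at 20.5, 17.1 and 12.3 TPM with CVAD and 21.5, 22.03 and 23.4 TPM with saline, lower without overlap. Mdm2, the p53 antagonist, overlapped at 64.05, 60.5 and 58.4 TPM with CVAD and 61.2, 59.5 and 68.95 TPM with saline. Repair genes had a median of 0.05 over 24 genes, and Fancd2, of crosslink repair, was lower without overlap at 1.36, 1.95 and 1.51 TPM with CVAD and 3.85, 2.04 and 3.73 TPM with saline. Genes of the antioxidant response had a median of 0.03, drug transporters and detoxifying enzymes of 0.08, and nuclear genes of the respiratory chain of −0.05. Cholesterol genes were lower in 17 of 18 at a median of −0.09, 2 of them without overlap, against 4.58% of all genes. Without CVAD replicate 3 their median was 0.02 and 8 of 18 were lower. Cytosolic ribosomal protein genes were lower in 65 of 78 at a median of −0.07, and small nucleolar RNAs were split between 38 higher and 33 lower of 71.

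Schwann cells that form myelin had 18 of 19 genes higher at a median of 0.24, 1 of them without overlap, a share close to that of all genes. The median ran from 0.116 with CVAD replicate 2 left out to 0.459 with saline replicate 1 left out. Pou3f1, a factor of the onset of myelination, was at 12.6, 13.8 and 14.1 TPM with CVAD and 12.1, 6.703 and 10.6 TPM with saline, Ncmap, a protein of compact myelin edges, at 95.2, 99.1 and 85.8 TPM with CVAD and 87.4, 62.98 and 64.7 TPM with saline, and Fa2h, which makes myelin lipids, at 102, 111 and 94.4 TPM with CVAD and 103, 62.7 and 58.6 TPM with saline. Saline replicate 1 reached the CVAD values for Ncmap and Fa2h. Satellite glia had a median of −0.02 over 15 genes, with Gja1, the gap junction protein connexin 43, higher without overlap at 55.5, 55.6 and 53.8 TPM with CVAD and 47.95, 47.9 and 45.01 TPM with saline and Fabp7 at 138, 157 and 120.4 TPM with CVAD and 155, 175 and 139.9 TPM with saline. Jun, which repair Schwann cells and injured neurons make, was higher without overlap at 69.3, 81.5 and 73.9 TPM with CVAD and 64.3, 64.2 and 67.8 TPM with saline. Fibroblast and matrix genes were higher in 17 of 20, 4 without overlap, at a median of 0.19 that ran from 0.118 without CVAD replicate 2 to 0.292 without CVAD replicate 3, among them Lox, which crosslinks collagen, at 71.9, 83.9 and 77.1 TPM with CVAD and 65.7, 49.2 and 54.9 TPM with saline, and Gsn, gelsolin, at 212, 228 and 206 TPM with CVAD and 184, 198 and 188 TPM with saline. Endothelial genes had a median of −0.03 over 20 tested, yet Plvap, the protein of capillary openings that marks leaky vessels, was at 32.7, 28.1 and 26.4 TPM in CVAD ganglia, against 39.9, 38.8 and 56.2 TPM in saline ganglia (log2 difference −0.60 ± 0.16 (SE), limma adjusted p = 0.311). Selp, which lets leukocytes roll on vessels and which platelets also hold, was at 1.53, 1.67 and 2.295 TPM with CVAD and 4.11, 3.96 and 3.75 TPM with saline, and both were lower without overlap. Kdr, the main receptor for VEGF, overlapped at 13.4, 11.98 and 13.4 TPM with CVAD and 17.6, 13.1 and 14.8 TPM with saline. Pericyte and smooth muscle genes had a median of −0.18 over 14, which was −0.023 without CVAD replicate 3.

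Tissue next to the ganglion varied between libraries. Skeletal muscle genes were higher in all 16, but their median of 0.95 turned to −0.328 without saline replicate 1. The muscle list summed to 803, 524 and 279 TPM in CVAD and 89.3, 782 and 462 TPM in saline. Markers of spinal cord and central glia summed to 111, 127 and 98.6 TPM in CVAD and 123, 107 and 93.2 TPM in saline, with 9 of 12 tested genes higher and a median of 0.149 that was 0.012 without saline replicate 2. Mobp, of oligodendrocytes, was at 11.8, 17.7 and 13.6 TPM with CVAD and 15.9, 0 and 1.15 TPM with saline, and Aqp4, of astrocytes, was listed at 0 throughout. The part of these tissues in genes higher in CVAD was not tested.

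Whether the CVAD response on day 8 differed from that on day 2 was tested as an interaction between the CVAD and saline groups of both days, in the model of all 30 libraries. Of 25434 genes 21 (0.0826%) passed in limma at an adjusted p under 0.05, with 15 negative and 6 positive differences. In a model of the 4 groups alone 2 genes passed. At an unadjusted p under 0.05, 2.34% were positive and 6.29% negative. Camp had an interaction of −2.96 ± 0.49 (SE, limma adjusted p = 0.0193), with day 2 values of 17.6, 34.6 and 26.3 TPM in CVAD and 8.397, 11.5 and 17.8 TPM in saline. Rac2 had an interaction of −2.03 ± 0.34 (limma adjusted p = 0.0193), with 9.69, 13.5 and 9.59 TPM in CVAD and 5.99, 4.197 and 7.62 TPM in saline on day 2. Elane had an interaction of −2.92 ± 0.57 (limma adjusted p = 0.0444), with 9.18, 14.04 and 9.59 TPM in CVAD and 4.17, 5.34 and 8.93 TPM in saline on day 2. On day 2 CVAD lay wholly above saline in Rac2 and Elane and overlapped it in 1 pair of libraries in Camp, while on day 8 it lay wholly below in all 3. Both arms differed between the days: the saline values of Camp were higher on day 8 than on day 2, and the CVAD values lower. The day 8 CVAD values of Camp overlapped those of day 2 saline. Hspa1b went the other way, with an interaction of 1.51 ± 0.26 (limma adjusted p = 0.0193), and day 2 values of 19.4, 21.9 and 19.1 TPM in CVAD and 30.8, 29.2 and 40.1 TPM in saline. For this chaperone, too, the saline libraries were not alike between days. Gm4739, a processed pseudogene, had the smallest p of the interaction, at −3.01 ± 0.44 (limma adjusted p = 0.00894), and Fcnb, ficolin B of neutrophil granules, chosen after its value was seen, had −4.60 ± 0.92 (limma adjusted p = 0.0496). The count depended on single libraries. It was 6, 1 and 12 without CVAD day 2 replicates 1, 2 and 3, and 13, 1 and 0 without CVAD day 8 replicates 1, 2 and 3. Without saline day 2 replicates 1, 2 and 3 it was 1, 8 and 24, and without saline day 8 replicates 1, 2 and 3 it was 14, 13 and 2. Over these 12 omissions Camp was called in 7, Rac2 in 6, Hspa1b in 6, Elane in 2, Fcnb in 2 and Gm4739 in 11. All 21 genes kept their sign in every omission.

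The single drugs were set beside CVAD on day 8. Between CVAD and cyclophosphamide limma called 0 genes (0%), with 1154 genes (4.54%) higher and 204 (0.802%) lower in CVAD at an unadjusted p under 0.05. Between CVAD and vincristine it called 0 genes (0%), with 418 (1.64%) higher and 467 (1.84%) lower. These comparisons and that with saline share the CVAD libraries, so they are not independent of each other. Camp was at 8.8004, 8.69 and 9.15 TPM in CVAD and 12.6, 24.3 and 19.5 TPM with cyclophosphamide alone (log2 difference −0.95 ± 0.35), and at 12.2, 16.8 and 31.2 TPM with vincristine alone (−0.99 ± 0.35). CVAD lay below both single drugs in every library. Elane was at 3.505, 2.22 and 5.37 TPM in CVAD, 7.38, 11.6 and 9.69 TPM with cyclophosphamide and 2.64, 7.34 and 8.55 TPM with vincristine, and overlapped with vincristine alone. Hspa1b was at 36.3, 37.1 and 46.5 TPM in CVAD, 29.2, 34.1 and 23.6 TPM with cyclophosphamide and 24.2, 25.9 and 24.6 TPM with vincristine, CVAD again being outside the range of each. Mt2 was at 90.4, 97.03 and 59.5 TPM in CVAD and 71.6, 67.8 and 52.9 TPM with vincristine, which overlapped. H3c8 was at 18.05, 16.9 and 10.2 TPM in CVAD, 17.05, 18.4 and 26.5 TPM with cyclophosphamide and 20.2, 27.7 and 28.3 TPM with vincristine. It overlapped with cyclophosphamide and lay below vincristine in every library.

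Summed levels set the groups of the series side by side. The specific and late granule list was at 191, 155 and 124 TPM with CVAD, 218, 368 and 233 TPM with cyclophosphamide, 184, 243 and 438 TPM with vincristine, 328, 224 and 426 TPM with doxorubicin, 342, 399 and 422 TPM with dexamethasone and 378, 435 and 549.9 TPM with saline. CVAD was below every library of cyclophosphamide, doxorubicin and dexamethasone alone and overlapped with 1 library of vincristine. On day 2 the same list was at 257, 519 and 312 TPM with CVAD and 187, 213 and 288 TPM with saline. Day 8 saline was the highest group of the series by its mean, and day 8 CVAD overlapped day 2 saline in 1 pair of neighbouring values. The histone list was at 1529, 2247 and 2115 TPM with CVAD and 1403, 1594 and 2056 TPM with saline on day 2, so the histone values of CVAD on day 8 lay within the range of day 2 saline. Whether libraries of the 2 days were prepared together is not given in the sources used here, and day and preparation cannot be told apart.

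**Figure D5:**
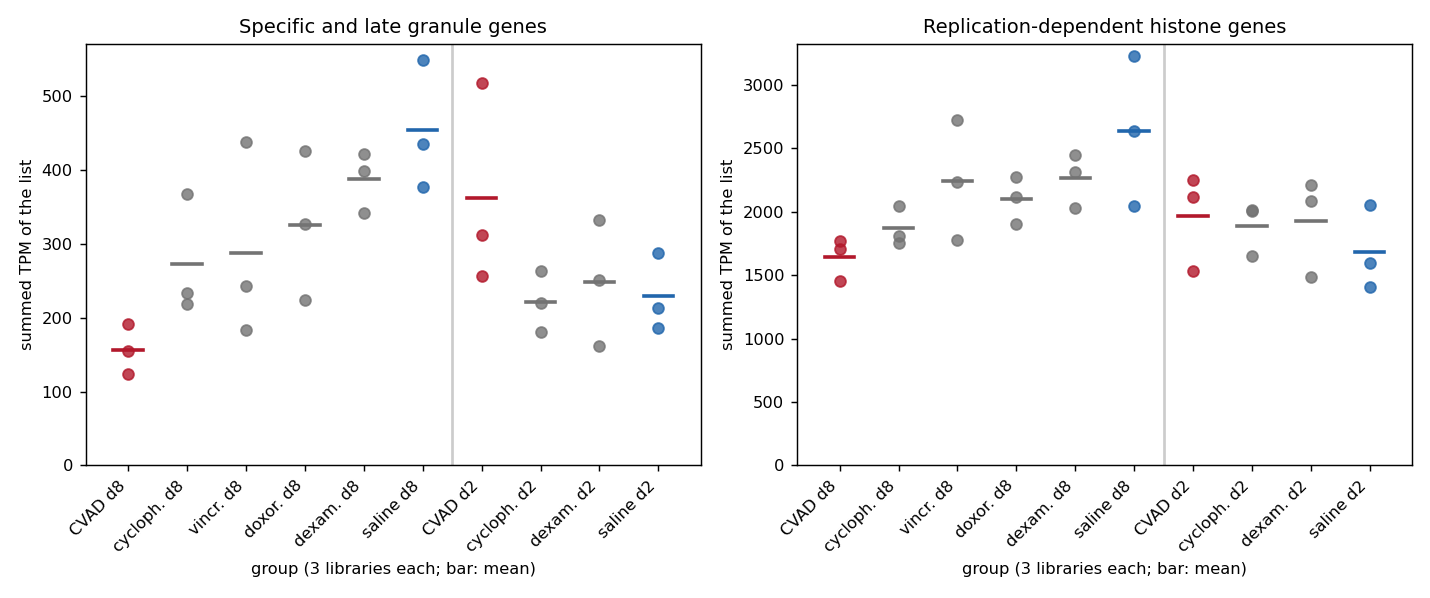
Summed TPM of the specific and late granule genes (left) and of the replication-dependent histone genes (right) in each of the 30 libraries, by group, with a bar at the mean of 3; CVAD is red, saline blue, the single drugs grey, and d2 and d8 are days 2 and 8. Day 8 saline has the highest mean and day 8 CVAD the lowest mean of both lists.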

How the data were processed

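Total RNA of lumbar ganglia (60 to 80 ng) was depleted of ribosomal RNA and made into stranded libraries, per the labels' protocols. FastQC 0.12.1, STAR 2.7.10b and StringTie 2.2.1 are named in the submitters' processing notes, with the builds mm10 and GRCm39, whose roles are not stated. The authors deposited 1 table of TPM per gene for 56686 genes, 19144 of them at 0 in every library. Read counts are not given, so the depth is unknown and no counting error was computed. All 30 columns were matched to samples by library name.

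Values were analysed as log2(TPM + 1). Genes at 1 TPM or more in at least 3 libraries (25434, of them 15314 protein-coding) were fitted in limma 3.58.1 (R 4.3.3) with a mean per group over all 30 libraries, a trend on mean expression and 2-sided p-values adjusted by the Benjamini-Hochberg method over all tested genes. One symbol can stand for several entries (882 entries repeat the symbol of an earlier one), and the most abundant entry was used. The comparisons were CVAD with saline, cyclophosphamide and vincristine on day 8, and the difference between days. Lists are described by counts and medians over tested members, without a test. Named genes are the 15 of smallest p in each direction without overlap and outside predicted models, the 3 of smallest p in each list, and 8 genes always given; other genes in the text were picked with their values in view. The lists and genes were chosen with earlier results of these data known. Alternatives were a pseudocount of 0.1, other filters, median-ratio scaling, protein-coding genes rescaled, fewer groups in the fit, library weights, and each library left out. The fit was tested on simulated data, where 8 of 25234 unchanged genes were called. Promoters are those of RefSeq on GRCm38.p6; coordinates of the table were not mixed with them. Figures were drawn with matplotlib 3.10.9, numpy 2.4.6 and pandas 2.3.3. Some genes of the lists are not reported here by name.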

Additional observations from a re-analysis of the deposited data

Results flagged for a closer look

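Of 201 named genes, 11 passed the interaction of limma between day and CVAD at an adjusted p under 0.05. Of all 25434 tested genes 21 (0.0826%) passed. Many named genes were picked by their day 8 difference, which is a part of the interaction, so the share among them is not separate evidence. The interaction is the day 8 difference minus the day 2 difference on the log2(TPM + 1) scale. Among granulocyte genes it was −2.9633 for Camp, −2.2525 for Ngp, −2.9077 for Cd177, −2.9202 for Elane, −2.0253 for Rac2, −2.9238 for Itgb2l and −3.949 for Epx. Epx was listed at 0 in the 3 CVAD libraries of day 8, so its value depends on the pseudocount. It was 1.5057 for Hspa1b and 1.7902 for Hspa1a, near-identical copies, 0.7671 for Zbtb40 and −0.6229 for Rps23, a ribosomal protein gene. Of 12 omissions of a single library, Camp and Cd177 passed in 7, Rac2 and Hspa1b in 6, Ngp and Rps23 in 5, Itgb2l and Hspa1a in 3, Elane in 2, Epx in 1 and Zbtb40 in 0. Groups of 3 are too small to look for outlying samples.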

How the results depend on the processing

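No paired analysis was possible because the titles carry no replicate number shared between groups. The comparison of CVAD with saline called 0 genes as analysed, 2 with no filter, 6 after median-ratio scaling, 7 among protein-coding genes rescaled, 4 with day 8 libraries only, 4 with library weights, and 0 to 3 with 1 library left out (2 without CVAD replicate 1, 1 without saline replicate 2 and 3 without saline replicate 3). No gene passed with a pseudocount of 0.1, with the filter set within the libraries compared, or with only the groups compared in the fit. Median-ratio scaling moved the median of all genes to −9e-04. At an unadjusted p the count of 1522 was 2729 with no filter. The difference between days called 21 genes as analysed, 11 with no filter, 36 after median-ratio scaling, 2 with only the groups compared, 86 with library weights, and 0 to 24 with 1 library left out. CVAD against cyclophosphamide called 1 gene with no filter and 0 to 3 with 1 library left out. CVAD against vincristine called 4 with no filter and 0 to 2 with 1 library left out. The cause of these changes was not tested.

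Of 201 named genes 191 kept their sign under all 14 settings, among them all 30 of smallest p. With 1 library left out, Prph ran from −0.2023 to 0.0003, Nefl from −0.1659 to 0.0489, Calca from −0.1228 to 0.0531 and Trpv1 from −0.1706 to 0.0250, each lowest without CVAD replicate 2 and highest without CVAD replicate 3. Tubb3 ran from −0.1027 without CVAD replicate 2 to 0.0567 without saline replicate 2. Slco1a4 ran from −0.0505 without saline replicate 2 to 0.2819, and Cdkn1a from −0.0205 to 0.3092, both highest without saline replicate 3. The muscle genes Acta1, Tnnt3 and Ckm were at −0.1766, −0.2473 and −0.1391 without saline replicate 1 and at 2.4902, 2.6189 and 2.7034 without saline replicate 2. With library weights, Nefl was at 0.0097, Calca at 0.0239 and Tubb3 at 0.0242. Of 59 lists 30 kept the sign of their median throughout. The number of reads is unknown, so how far depth limits genes of few TPM cannot be stated.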
